A study of Mus musculus with 18 samples.

Results

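The genes described here make the peptides that MHC class I molecules display, carry them into the endoplasmic reticulum and load them. They were chosen by name, as genes of the pathway, with no threshold on their counts: the classical heavy chains H2-K1 and H2-D1 and their light chain B2m, the peptide transporter subunits Tap1 and Tap2 with the loading factor Tapbp (tapasin), the 3 inducible proteasome subunits Psmb8, Psmb9 and Psmb10, and the transcriptional activator Nlrc5. The list was made with earlier results of these data known, so counts of members called are given as a description. All 10 had a row among the 11243 genes of the count table. The RNA came from 3 independent experiments on the mouse macrophage line RAW264.7. Each experiment held 3 treatments of 6 h. Control cells had vehicle, LPS cells had 500 ng/mL lipopolysaccharide (LPS), and cells of the last treatment had the same LPS after 15 min with 100 nM torin1, which blocks the kinase mTOR. Each lysate gave 1 library of total mRNA and 1 of mRNA from pooled heavy polysomes, mRNA that carries many ribosomes, so that 18 libraries in 6 groups of 3 were compared. All groups come from 1 established cell line, and the study's text also calls the control cells untreated.

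MHC class I molecules show peptides from proteins made inside the cell to cytotoxic T cells. The proteasome cuts these proteins, the TAP transporter moves the peptides into the endoplasmic reticulum, and tapasin holds an empty heavy chain and B2m beside TAP until a peptide binds. In cells exposed to interferon or to microbial products, macrophages among them, inducible catalytic subunits take the place of the constitutive ones to form the immunoproteasome, and Nlrc5 acts as a coactivator at class I promoters. The study followed antigen presentation through peptides on MHC class II, in dendritic cells grown from bone marrow and with inhibitors of mTOR and of S6 kinase. It reported that LPS raised the peptide complexes, total MHC class II protein and T cell activation, and that both inhibitors reduced these. The class I mRNAs below were measured in another cell, at the level of RNA only, and nothing here measures a peptide or a protein at the cell surface. The study also used B2m as one of its control mRNAs across gradient fractions, in measurements that were not analysed here. It reported that LPS and torin1 did not greatly change where these control mRNAs lay in the gradient.

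The libraries held from 27800983 to 47725557 counted reads. Levels are given as CPM, the counts of a gene scaled to a common library size, after TMM scaling, a correction for differences in library composition. Macrophage genes were high in every group: mean Lyz2 lay between 5060 and 11900 CPM, and mean Cd14 between 1190 and 4160 CPM. Of the 10 macrophage markers listed, 9 had a row in the table, all but Mertk. Of 6 dendritic cell markers, 3 had a row. Mean Zbtb46 reached at most 1.06 CPM and mean Xcr1 at most 9.39 CPM, whereas mean Itgax went from 3.83 CPM in control total mRNA to 36.9 CPM with LPS and torin1. Whether all cells of the line or only some of them held the Itgax and Xcr1 mRNA cannot be told from bulk lysates and was not tested. None of the 8 lymphocyte markers and none of the 6 fibroblast and epithelial markers had a row. The table holds only genes counted in every library, so a marker without a row was not analysed here. The TMM factors of the control libraries were 1.13 to 1.18 and those of all others 0.875 to 0.976. With library totals alone the median of all genes shifted by −0.37 (total) and −0.35 (polysome-associated) on the log2 scale for LPS against control, and every member was still higher with LPS. Cell number and the amount of RNA per cell were not measured here, so all levels are relative within a library.

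In the GRCm38 annotation, 7 of the 10 genes lie on chromosome 17, within or beside the MHC. Psmb9, Tap1, Psmb8 and Tap2 stand together on 34335 bases (chr17:34181987-34216321). B2m is on chromosome 2 (122147686 to 122153083), and Psmb10 (105935735 to 105938444) and Nlrc5 (94434356 to 94527272) are on chromosome 8. Promoter windows, from 250 bases before to 50 bases after the RefSeq start on GRCm38.p6, were found for 8 of the 10 genes, all but Tap2 and Nlrc5. The windows of Tap1 and Psmb9 share 275 bases on opposite strands. Windows of the heavy chains and B2m are printed because they carry the same kinds of motif, that of Tap1 because it is shared with Psmb9, and that of Psmb8 because it holds the only GAS match. Each is 5′ to 3′ on the strand of its gene, and capitals mark every match to a kappaB consensus, an IRF core (AANNGAAA), a GAS element (TTCNNNGAA) or a CCAAT box, on either strand.
H2-K1, chr17:34000298-34000597, minus strand: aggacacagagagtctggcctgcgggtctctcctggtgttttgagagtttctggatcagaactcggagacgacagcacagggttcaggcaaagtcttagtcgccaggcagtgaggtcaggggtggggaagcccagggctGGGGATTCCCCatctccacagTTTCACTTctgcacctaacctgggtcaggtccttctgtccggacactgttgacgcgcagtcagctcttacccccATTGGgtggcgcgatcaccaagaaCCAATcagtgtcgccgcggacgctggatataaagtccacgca
H2-D1, chr17:35262844-35263143, plus strand: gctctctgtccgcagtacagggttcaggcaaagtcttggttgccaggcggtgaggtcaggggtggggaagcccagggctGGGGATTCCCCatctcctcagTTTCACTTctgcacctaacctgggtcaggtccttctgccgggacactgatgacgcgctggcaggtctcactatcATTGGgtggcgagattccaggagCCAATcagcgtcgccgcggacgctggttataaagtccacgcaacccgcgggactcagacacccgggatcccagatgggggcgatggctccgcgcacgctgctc
B2m, chr2:122147437-122147736, plus strand: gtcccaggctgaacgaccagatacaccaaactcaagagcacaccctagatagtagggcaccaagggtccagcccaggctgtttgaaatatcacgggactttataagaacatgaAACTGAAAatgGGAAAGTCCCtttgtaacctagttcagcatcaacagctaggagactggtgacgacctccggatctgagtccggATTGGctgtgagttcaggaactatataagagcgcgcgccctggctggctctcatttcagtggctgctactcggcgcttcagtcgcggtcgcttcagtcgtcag
Tap1, chr17:34187306-34187605, plus strand: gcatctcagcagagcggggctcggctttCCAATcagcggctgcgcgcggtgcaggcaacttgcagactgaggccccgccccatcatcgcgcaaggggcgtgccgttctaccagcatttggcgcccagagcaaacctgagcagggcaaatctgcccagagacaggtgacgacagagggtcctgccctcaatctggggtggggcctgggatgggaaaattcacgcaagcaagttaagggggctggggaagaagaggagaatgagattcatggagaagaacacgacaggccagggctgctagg
Psmb8, chr17:34197945-34198244, plus strand: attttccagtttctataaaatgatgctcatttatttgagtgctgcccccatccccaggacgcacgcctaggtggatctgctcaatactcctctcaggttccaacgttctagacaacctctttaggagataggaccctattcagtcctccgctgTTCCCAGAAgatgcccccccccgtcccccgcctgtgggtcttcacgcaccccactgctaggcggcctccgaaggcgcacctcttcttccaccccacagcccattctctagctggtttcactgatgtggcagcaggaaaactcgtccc

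A kappaB match and an IRF core match were found in 3 of the 8 genes with a window, H2-K1, H2-D1 and B2m in both cases. In the H2-K1 and H2-D1 windows the kappaB matches overlap each other by all but 1 base and read as a match on both strands. Of 32817 RefSeq promoter windows of the same length, 8.46% held a kappaB match and 23.9% an IRF core. A GAS element occurred in Psmb8 alone of the 8, against 8.29% of all windows, and a CCAAT box in 6 of the 8, against 37.4% of all windows. The CCAAT matches of Tap1 and Psmb9 are the same bases read on opposite strands, so 1 site is counted for both genes. A match describes the letters of the window and does not show that a factor binds there.

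Reads of some members are shared with other genes. The coding sequences of H2-K1 (1110 bases) and H2-D1 (1089 bases) are 88.7% identical, so reads can be placed on the wrong one or lost. RAW264.7 cells come from a BALB/c mouse and the reference genome from C57BL/6J mice, which carry different class I alleles. Levels of H2-K1 and H2-D1 are therefore uncertain, and changes between treatments can hold reads of either. Psmb9 and Tap1 overlap by 212 exonic bases on opposite strands, and Tapbp overlaps Zbtb22 by 149 exonic bases on the same strand. Noncoding genes on the opposite strand overlap exons of Tap2, Tapbp, Psmb8 and Nlrc5. The strand setting of the counting is not spelled out in the sources used here, which name a pipeline run with default settings. Exon length was taken as the union over all annotated transcripts of a gene (2938 bases for H2-K1), so the order below depends on the annotation. Per kilobase of annotated exon, B2m stood highest in control total mRNA (689 ± 146 CPM per kb, SD, n = 3), followed by H2-D1 (99.5 ± 18.4) and Tapbp (46.5 ± 4.48). Psmb10 (27.4 ± 4.29), H2-K1 (21.2 ± 1.58) and Psmb8 (20.9 ± 6.20) came next, and neighbours among them did not differ beyond their spread except Psmb10 and H2-K1. Tap1 (8.75 ± 2.90), Nlrc5 (5.53 ± 2.33), Psmb9 (3.98 ± 1.33) and Tap2 (3.64 ± 0.569) were lowest, and neighbours in this order overlapped within their SD.

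LPS raised the mRNA of every member, in total and in polysome-associated mRNA. In total mRNA 10 of 10 members were higher at an adjusted p of at most 0.25, the threshold of the study, while 32.2% of all genes were higher and 34.3% lower. In polysome-associated mRNA it was again 10 of 10, with 26.4% of all genes higher and 28.7% lower. In both RNA types the 3 LPS libraries lay above the 3 control libraries for all 10 members, as they did for 25.6% of all genes in total and 22.1% in polysome-associated mRNA. The median log2 change of the members was 1.09 in total and 1.00 in polysome-associated mRNA, and that of all genes −0.02 and −0.03. Nlrc5 and Tap1 changed most, by 5.22-fold to 5.98-fold, and the other 8 between 1.73-fold and 2.68-fold in either RNA type.

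**Figure D1:**
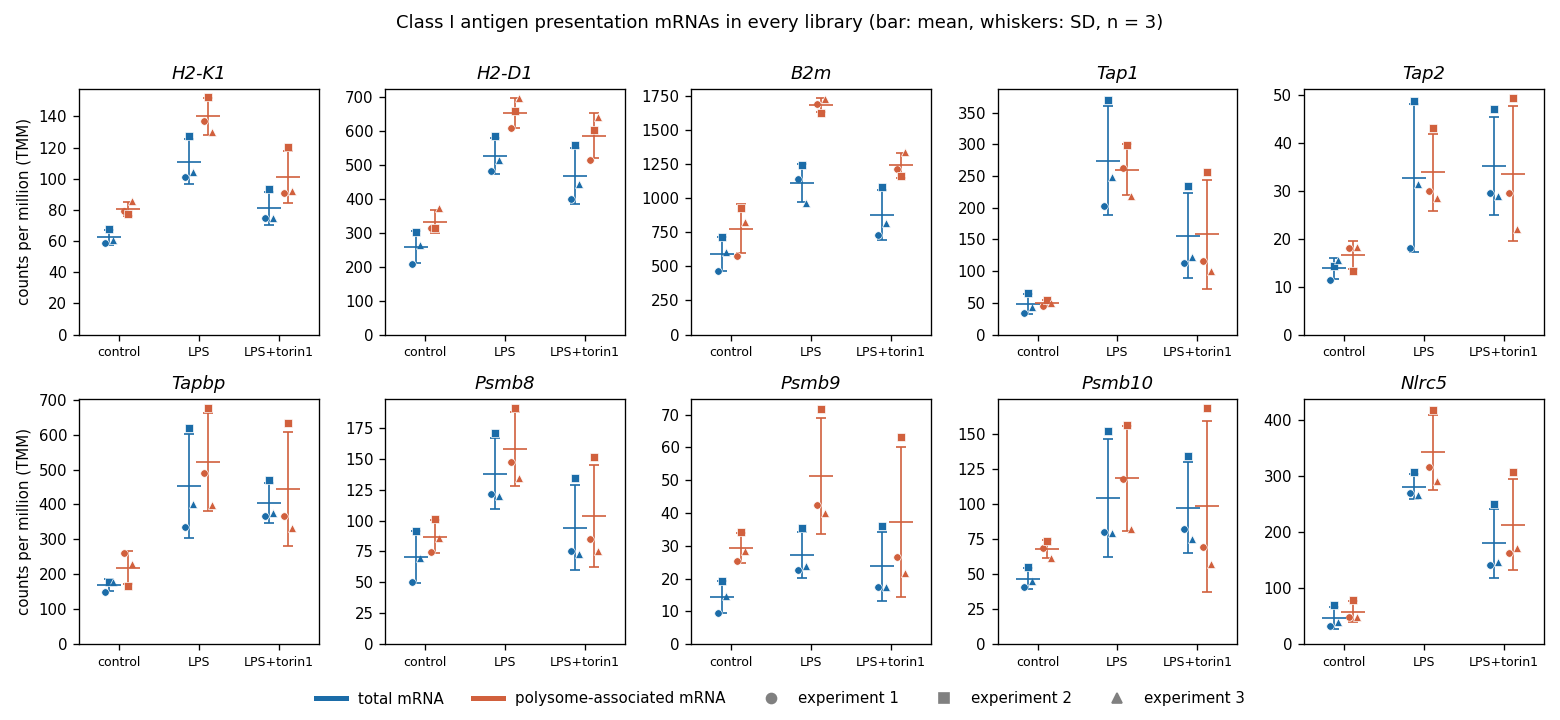
CPM (TMM) of the 10 class I genes on a linear axis that starts at 0, for each treatment, with a point per library shaped by experiment, blue for total and orange for polysome-associated mRNA, a bar for the mean and whiskers for the SD (n = 3). For every gene the 3 LPS points lie above the 3 control points of the same colour, and with LPS and torin1 the square of experiment 2 is the highest total mRNA point of all 10 genes.

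The heavy chains and their light chain rose between 1.73-fold and 2.16-fold. H2-K1, which binds the peptide, was at 59.0, 67.7 and 60.6 CPM in control total mRNA and at 101.06, 128 and 104 CPM with LPS, in experiments 1, 2 and 3. Its polysome-associated level went from 79.0, 77.2 and 86.0 CPM to 137, 153 and 130 CPM. The rise was 1.78-fold in total mRNA (log2 0.83, SE 0.128, adjusted p = 0.000457, edgeR) and 1.73-fold in polysome-associated mRNA. H2-D1, the other classical heavy chain of the table, went from 206, 301 and 263 CPM to 480, 583 and 514 CPM in total mRNA, a rise of 2.05-fold (log2 1.03, SE 0.166, adjusted p = 0.000598). Its polysome-associated level rose 1.96-fold, from 314, 312 and 371 CPM to 607, 658 and 695 CPM. B2m, the invariant light chain that every class I heavy chain needs, was the most abundant member. It was counted at 462, 712 and 604 CPM in control total mRNA and at 1136, 1242 and 962 CPM with LPS, 1.88-fold higher (log2 0.91, SE 0.190, adjusted p = 0.00287). In polysome-associated mRNA B2m rose 2.16-fold, from 576, 926 and 826 CPM to 1685, 1620.3 and 1725 CPM (log2 1.11, SE 0.182, adjusted p = 0.00104).

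Of the transporter subunits, Tap1 rose by more than 5-fold and Tap2 by more than 2-fold. Tap1, which pairs with Tap2 to form the peptide pump, went from 34.5, 65.4 and 43.8 CPM in control total mRNA to 203, 370 and 249 CPM with LPS. The lowest LPS library was above the highest control library by a wide margin, and the rise was 5.72-fold (log2 2.52, SE 0.343, adjusted p = 0.000207). In polysome-associated mRNA Tap1 rose 5.22-fold, from 45.5, 54.8 and 49.0 CPM to 263, 299 and 218 CPM. Tap2 was at 11.4, 14.3 and 15.6 CPM in control and 18.1, 48.7 and 31.4 CPM in LPS total mRNA, so that the groups were close in experiment 1 and far apart in experiment 2. Its rise was 2.38-fold (log2 1.25, SE 0.321, adjusted p = 0.00900) and 2.05-fold in polysome-associated mRNA (18.1, 13.2 and 18.4 CPM against 30.1, 43.1 and 28.4 CPM). Tapbp, which bridges TAP and the empty heavy chain, went from 150, 178 and 178 CPM to 336, 620 and 400 CPM in total mRNA, 2.68-fold higher (log2 1.42, SE 0.209, adjusted p = 0.000332). In polysome-associated mRNA it went from 260, 167 and 230 CPM to 490, 676 and 399 CPM, 2.39-fold higher. For both Tap2 and Tapbp the LPS library of experiment 2 was the highest of its 3.

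The inducible proteasome subunits rose by about as much as the heavy chains. Psmb8, which replaces Psmb5, was at 50.1, 92.0 and 70.1 CPM in control and at 122, 171 and 120 CPM in LPS total mRNA (1.94-fold, log2 0.96, SE 0.275, adjusted p = 0.0159). Psmb9, which replaces Psmb6, was the least abundant of the 3, at 9.65, 19.4 and 14.6 CPM in control and 22.6, 35.3 and 23.9 CPM in LPS total mRNA (1.87-fold, log2 0.90, SE 0.326, adjusted p = 0.0436). Psmb10, which replaces Psmb7, went from 40.3, 54.7 and 45.1 CPM to 80.2, 152 and 79.3 CPM (2.22-fold, log2 1.15, SE 0.286, adjusted p = 0.00756). In polysome-associated mRNA their rises were 1.82-fold, 1.76-fold and 1.75-fold. Psmb9 and Psmb10 had the weakest tests of the members there (adjusted p = 0.132 and 0.129, edgeR). Both calls were lost without experiment 1 (adjusted p = 0.351 and 0.371) and with library totals in place of TMM (adjusted p = 0.355 and 0.348).

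Nlrc5, the coactivator of class I genes, changed most of the 10. It was at 32.6, 69.6 and 38.8 CPM in control total mRNA and at 270, 307 and 267 CPM with LPS, 5.98-fold higher (log2 2.58, SE 0.301, adjusted p = 7.31e-05). Polysome-associated Nlrc5 went from 47.9, 78.9 and 47.6 CPM to 316, 418 and 290 CPM, 5.88-fold higher (log2 2.56, SE 0.309, adjusted p = 0.000155). Control and LPS libraries were far apart in each experiment. Over the 18 libraries, the 5 genes whose log2 CPM followed that of Nlrc5 most closely were A530032D15Rik (Pearson r = 0.990), Helz2 (0.988), Csf1 (0.988), Uba7 (0.988) and Zbp1 (0.987). Among the other members Tap1 came nearest, at rank 18 of all genes (0.975), H2-D1 stood at rank 157 (0.926) and Psmb9 last at rank 1169 (0.691). These correlations share libraries, lysates and treatments and are given as a description.

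Torin1 given with LPS lowered 5 of the members and raised none. H2-K1, B2m, Tap1, Psmb8 and Nlrc5 were lower than with LPS alone in total mRNA (5 of 10; 26.4% of all genes were lower and 27.3% higher). The same 5 were lower in polysome-associated mRNA, where 18.2% of all genes were lower and 20.3% higher. The median log2 change of the members was −0.27 in total and −0.43 in polysome-associated mRNA, and that of all genes 0.00 in both. The drops lay between 1.27-fold and 1.75-fold, well under the rise with LPS for Tap1 and Nlrc5. At the stricter adjusted p of 0.05, 1 member was lower in total mRNA (H2-K1; 13.5% of all genes) and 0 in polysome-associated mRNA (5.75% of all genes). The groups did not overlap for H2-K1 and Nlrc5 in total mRNA (2 of 10; 19.8% of all genes) and for H2-K1 and B2m in polysome-associated mRNA (2 of 10; 16.8% of all genes). With the experiment number as a block, 7 members were lower in total mRNA (31.4% of all genes), with H2-D1 and Psmb9 added, and 6 in polysome-associated mRNA (24.3% of all genes), with Psmb9 added.

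**Figure D2:**
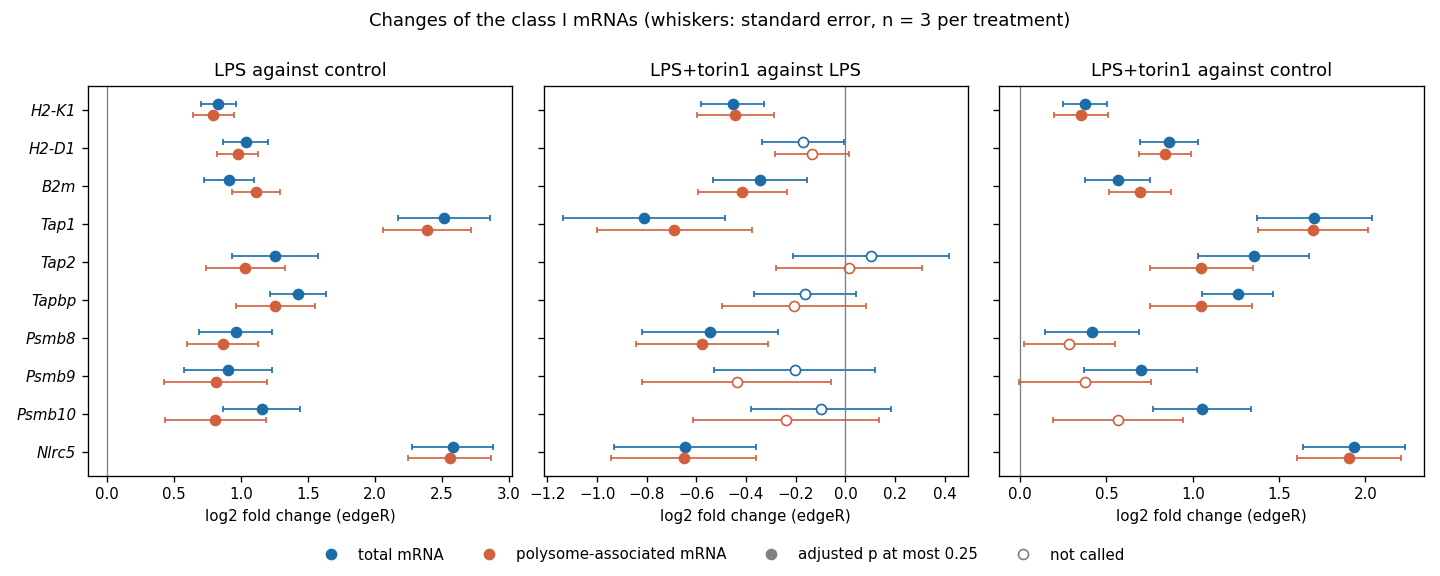
Log2 fold changes of the 10 class I genes from edgeR with their standard errors (n = 3 per treatment), in blue for total and orange for polysome-associated mRNA, filled where the adjusted p was at most 0.25. All points lie to the right of 0 for LPS against control, with Tap1 and Nlrc5 beyond 2, and H2-K1, B2m, Tap1, Psmb8 and Nlrc5 are filled to the left of 0 for torin1 with LPS against LPS.

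In total mRNA H2-K1 had the smallest spread between experiments of the 10 changes. With LPS and torin1 it was at 74.7, 93.3 and 75.0 CPM in total mRNA, each library below every LPS library, and within the experiments it fell by 0.44, 0.45 and 0.48 on the log2 scale. The drop was 1.37-fold (log2 −0.45, SE 0.128, adjusted p = 0.0230, edgeR). In polysome-associated mRNA it was at 90.8, 120 and 92.0 CPM, 1.36-fold lower (log2 −0.44, SE 0.156, adjusted p = 0.0856). H2-D1 was at 399, 559 and 442 CPM in total mRNA and at 512, 603 and 640 CPM in polysome-associated mRNA, and its changes of −0.17 (SE 0.165, adjusted p = 0.469) and −0.13 (SE 0.150, adjusted p = 0.594) did not pass the test. Whether H2-K1 and H2-D1 differ in their response was not tested. B2m was at 730.4, 1082 and 818 CPM in total mRNA (1.27-fold lower, log2 −0.34, SE 0.188, adjusted p = 0.197), and at 1213, 1158.5 and 1339.7 CPM in polysome-associated mRNA (1.33-fold lower, log2 −0.41, SE 0.180, adjusted p = 0.151). In the polysomes every torin1 library of B2m was below every LPS library, whereas in total mRNA the groups overlapped.

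Tap1 fell and Tap2 did not pass the test in either direction. Tap1 was at 113.35, 234 and 122 CPM in total mRNA with LPS and torin1, 1.75-fold lower than with LPS (log2 −0.81, SE 0.326, adjusted p = 0.0869). In polysome-associated mRNA it was at 116, 257 and 100.99 CPM, 1.61-fold lower (log2 −0.69, SE 0.313, adjusted p = 0.170), and the library of experiment 2 stood near its LPS partner of 299 CPM while the other two fell by more than 1 on the log2 scale. Tap2 was at 29.5, 47.1 and 28.97 CPM in total mRNA (log2 0.10, SE 0.313, adjusted p = 0.837) and at 29.5, 49.3 and 22.1 CPM in polysome-associated mRNA (log2 0.02, SE 0.294, adjusted p = 0.978). The sign of the Tap2 change in total mRNA turned without experiment 1 (log2 −0.08), and in polysome-associated mRNA it depended on the normalization, the model and single experiments. Tapbp was at 367, 469 and 376 CPM in total and 365, 633 and 333 CPM in polysome-associated mRNA, with changes of −0.16 (adjusted p = 0.586) and −0.21 (adjusted p = 0.679).

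Of the proteasome subunits, Psmb8 fell. It was at 75.4, 134 and 73.3 CPM in total mRNA with LPS and torin1 (1.46-fold lower, log2 −0.54, SE 0.274, adjusted p = 0.162) and at 85.2, 151 and 75.2 CPM in polysome-associated mRNA (1.49-fold lower, log2 −0.58, SE 0.266, adjusted p = 0.174). Experiment 2 again lay above the other two, so the groups overlapped. Psmb9 was at 17.5, 35.9 and 17.6 CPM in total mRNA (log2 −0.20, adjusted p = 0.671) and at 26.6, 63.3 and 21.6 CPM in polysome-associated mRNA (log2 −0.44, adjusted p = 0.481). Its changes passed with the experiment as a block (log2 −0.25, adjusted p = 0.180 in total, and log2 −0.53, adjusted p = 0.116 in polysome-associated mRNA). Psmb10 was at 82.2, 134 and 74.7 CPM in total mRNA (log2 −0.10, adjusted p = 0.825). In polysome-associated mRNA it was at 69.3, 168 and 57.1 CPM (log2 −0.24, adjusted p = 0.711), with 2 libraries near the control level and that of experiment 2 above every LPS library.

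Nlrc5 was at 141, 251 and 147 CPM in total mRNA with LPS and torin1, below every LPS library (1.57-fold lower, log2 −0.65, SE 0.285, adjusted p = 0.115). In polysome-associated mRNA it was at 163, 307 and 171 CPM (1.57-fold lower, log2 −0.65, SE 0.293, adjusted p = 0.165), and the library of experiment 2 lay above the lowest LPS library. Within the experiments Nlrc5 fell by 0.93, 0.29 and 0.86 in total mRNA and by 0.96, 0.44 and 0.77 in polysome-associated mRNA, least in experiment 2 both times.

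The count of members lowered by torin1 rested on which experiments were in the fit. Without experiment 1 it was 2 in total mRNA (H2-K1 and Tap1), with 2455 of all 11243 genes lower, and 0 in polysome-associated mRNA, with 740 genes lower. Without experiment 3 it was 1 (H2-K1), with 1894 genes lower, and 0, with 478 genes lower. Without experiment 2 it was 6 in total mRNA (Psmb9 added), with 2603 genes lower, and 8 in polysome-associated mRNA (all but H2-D1 and Tap2), with 2629 genes lower. With all 3 experiments the genes lower were 2966 of total and 2044 of polysome-associated mRNA. In total mRNA with LPS and torin1, the library of experiment 2 was the highest of the 3 for all 10 members, as for 34.8% of all genes. It was also the highest in total mRNA for 10 members with LPS (30.9% of all genes) and for 9 in the control cells (38.5% of all genes). Its polysome-associated library was the highest for 6 members in control cells (35.8% of all genes), 8 with LPS (35.8%) and 8 with LPS and torin1 (39.3%). The SD over all genes of the torin1 change was 0.61 in experiment 2, in both RNA types, and between 0.70 and 0.73 in the others. The part of this difference between experiments in the counts above was not tested beyond leaving each one out.

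**Figure D3:**
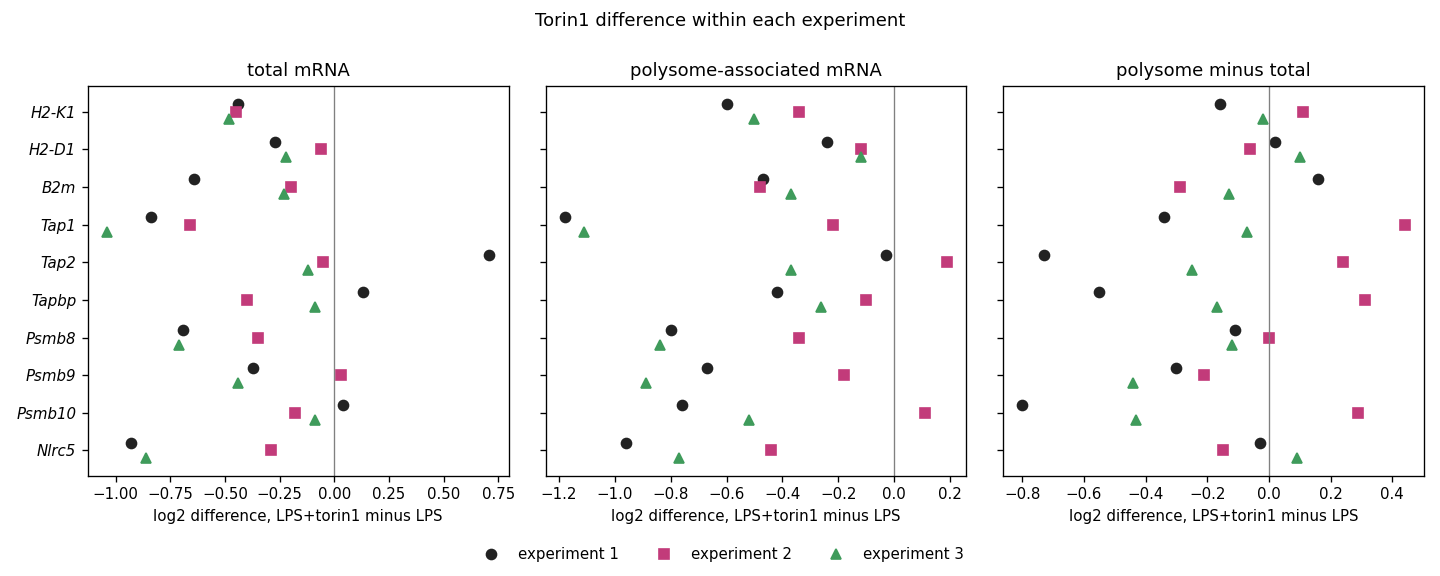
Log2 difference between LPS with torin1 and LPS within each experiment for the 10 class I genes, in total mRNA, in polysome-associated mRNA and as the polysome-associated minus the total difference. For Tap1, Psmb8, Psmb9, Psmb10 and Nlrc5 the polysome-associated point of experiment 2 lies nearest to 0 or above it, and in the third panel most genes have points on both sides of 0.

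Compared with control cells, cells given LPS and torin1 still had more of these mRNAs. In total mRNA 10 of 10 members were higher (33.1% of all genes), from Psmb8 at 1.33-fold (log2 0.42, SE 0.274, adjusted p = 0.240) to Nlrc5 at 3.82-fold (log2 1.93, SE 0.294, adjusted p = 0.000388). In polysome-associated mRNA 7 of 10 were higher (28.5% of all genes), and the 3 that did not pass were the inducible proteasome subunits. Psmb8 differed there from control by 0.28 (SE 0.265, adjusted p = 0.435), Psmb9 by 0.37 (SE 0.382, adjusted p = 0.479) and Psmb10 by 0.57 (SE 0.376, adjusted p = 0.270). With the experiment as a block 8 members passed (31.6% of all genes), Psmb10 being the eighth (log2 0.40, adjusted p = 0.212). This comparison shares its control and torin1 libraries with those above. Psmb8 in total mRNA was close to the threshold, and its call was lost without experiment 1 (adjusted p = 0.375), without experiment 3 (adjusted p = 0.296), with all 18 libraries in 1 model (adjusted p = 0.272) and with library totals (adjusted p = 0.730). With library totals the total mRNA calls of H2-K1 (log2 0.08, adjusted p = 0.620) and Psmb9 (log2 0.40, adjusted p = 0.309) were lost too, and so was that of H2-K1 in polysome-associated mRNA (log2 0.06, adjusted p = 0.779). The polysome-associated H2-K1 call was also lost without experiment 2 (log2 0.16, adjusted p = 0.387).

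The changes of the members in the polysomes could not be told apart from those of total mRNA. Translation efficiency, the change of polysome-associated mRNA beyond that of total mRNA, was tested as an interaction, at an adjusted p of at most 0.25 and a fold of at least 1.2. It was called for 0 of 10 members in each of the 3 comparisons, and for 0.0% of all genes in LPS against control, 0.0% in LPS with torin1 against LPS, and 0.0% in LPS with torin1 against control. At an unadjusted p under 0.05 there were 44, 110 and 145 genes of 11243, in this order. Each count is well under a share of 0.05 of all genes, which a calibrated test gives when nothing changes. The main test, which did not pair the 2 libraries of a lysate, was thus conservative. How much the missing pairing adds to this was not tested. With all libraries, other tests of the same contrasts called between 0 and 25 genes, which are given with the alternatives, and 0 members. The standard errors of the members' changes lay between 0.193 and 0.544 on the log2 scale, and between 0.131 and 0.254 with the lysate as a block. With its own method, anota2seq, the study reported a subset of mRNAs with changed translation efficiency after LPS. It also wrote that pooling of fractions may mask some shifts. A test that called no gene at all cannot show that the efficiency of the members was unchanged.

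B2m, Psmb9 and Psmb10 are singled out here after their values were seen. B2m, whose polysome-associated rise with LPS exceeded its total rise, had a translation efficiency change of 0.20 (SE 0.268, adjusted p = 1.00), with polysome minus total at 0.32, 0.38 and 0.45 in control cells and at 0.57, 0.38 and 0.84 with LPS. Psmb10 had the largest change of any member, −0.52 for LPS with torin1 against control (SE 0.510, adjusted p = 0.998). Its polysome minus total value was 0.76, 0.43 and 0.45 in control cells and −0.25, 0.33 and −0.39 with LPS and torin1. Psmb9 changed by −0.36 in the same comparison (SE 0.544, adjusted p = 0.998). With the lysate as a block the unadjusted p was 0.00574 for Psmb10 (log2 −0.65) and 0.0227 for Psmb9 (log2 −0.47), and the adjusted p was 0.659 for both. Without experiment 2, Psmb10 (log2 −0.91, adjusted p = 0.194) and Tapbp passed, among 430 genes that did, 407 of them lower. The other 7 members lay between −0.22 and −0.03 for LPS against control, between −0.11 and 0.09 for torin1 with LPS against LPS, and between −0.33 and −0.04 for LPS with torin1 against control. Over the alternatives the sign of these small values changed in 11, 14 and 15 of 63 cases, in the same order.

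Ratios of 2 mRNAs within a library do not depend on the scaling between libraries, and 4 were compared, in 24 tests. The ratio of Tap1 to Tap2, added after the values were seen, was higher with LPS by 1.89, 0.74 and 1.50 on the log2 scale in total mRNA (mean 1.38) and by 1.80, 0.74 and 1.52 in polysome-associated mRNA (mean 1.35). With torin1 it differed by −1.55, −0.61 and −0.92 in total mRNA and by −1.15, −0.41 and −0.74 in polysome-associated mRNA. In all 4 cases the libraries of the 2 treatments did not overlap and the exact two-sided permutation p was 0.10 (adjusted p = 0.30), the smallest that 3 libraries against 3 can give. Each inducible proteasome subunit was set against the constitutive subunit whose place it takes. With LPS the log2 ratio of Psmb8 to Psmb5 differed by 0.63, 0.55 and 0.51 in total mRNA (exact permutation p = 0.10, adjusted 0.30). That of Psmb9 to Psmb6 differed by 0.49, 0.33 and 0.22 (exact permutation p = 0.30), and that of Psmb10 to Psmb7 by 0.24, 1.25 and 0.42 (exact permutation p = 0.10), positive in each experiment. The constitutive subunits rose with LPS too, Psmb5 by 0.41 (adjusted p = 0.0167), Psmb6 by 0.59 (adjusted p = 0.00551) and Psmb7 by 0.46 (adjusted p = 0.0129). In polysome-associated mRNA the ratio of Psmb8 to Psmb5 differed by 0.68, 0.65 and 0.47 with LPS (exact permutation p = 0.20). That of Psmb9 to Psmb6 differed there by 0.03, 0.35 and 0.10 (exact permutation p = 0.60). That of Psmb10 to Psmb7 differed by −0.07, 0.79 and −0.08 (exact permutation p = 0.90), positive in experiment 2 only.

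With torin1 the ratio of Psmb9 to Psmb6 was lower in every experiment, at −0.85, −0.50 and −1.15 against LPS in total mRNA (exact permutation p = 0.10) and −0.92, −0.55 and −1.28 in polysome-associated mRNA (exact permutation p = 0.20). Psmb6 itself was higher with torin1 and LPS than with LPS in total mRNA (log2 0.57, SE 0.137, adjusted p = 0.0122), whereas Psmb5 (log2 −0.29, adjusted p = 0.0969) and Psmb7 (log2 −0.39, adjusted p = 0.0441) were lower. The ratio of Psmb8 to Psmb5 changed by −0.33, 0.00 and −0.56 in total mRNA (exact permutation p = 0.40), and that of Psmb10 to Psmb7 by 0.69, 0.03 and 0.18 (exact permutation p = 0.40).

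**Figure D4:**
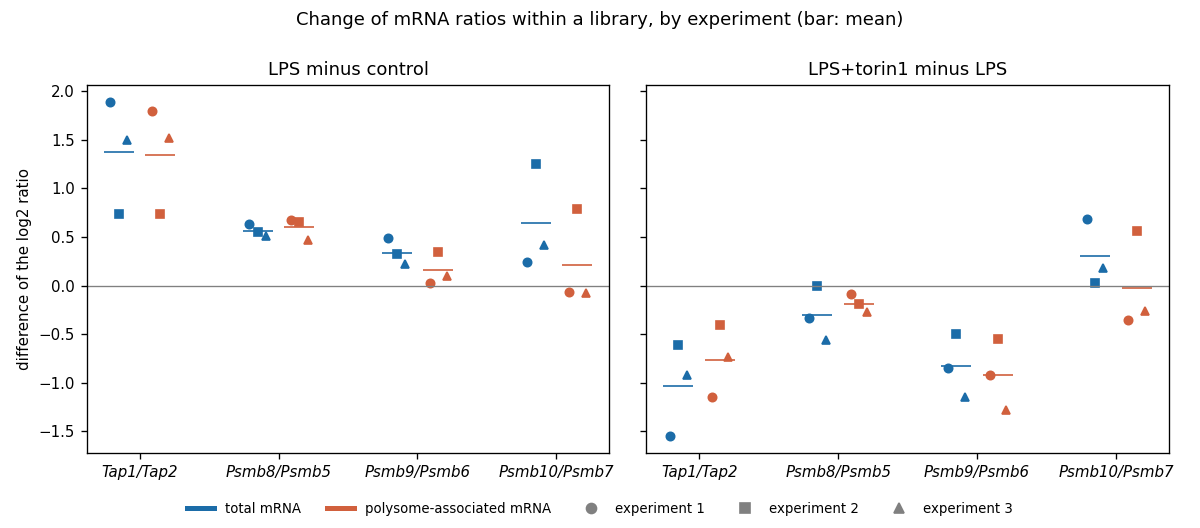
Change of the log2 ratio of 2 mRNAs within a library, by experiment (points) with the mean (bar), in blue for total and orange for polysome-associated mRNA. The Tap1 to Tap2 points are all above 0 for LPS minus control and all below 0 for LPS with torin1 minus LPS, as are the Psmb9 to Psmb6 points, while those of Psmb10 to Psmb7 lie on both sides of 0 in polysome-associated mRNA.

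Other genes of the pathway moved with LPS to different degrees, and the counts stand beside 32.2% of all genes higher and 34.3% lower. In total mRNA 10 of 13 further class I heavy chain genes were higher and 1 lower, with H2-T22 (log2 1.78, adjusted p = 0.00226), H2-T24 (1.48, adjusted p = 0.00883) and H2-Q2 (1.38, adjusted p = 0.00530) highest. These genes resemble H2-K1 and H2-D1 and share the same limit on read placement. Of 10 other loading and trimming genes 8 were higher and 0 lower, led by the chaperone Hspa5 (1.33, adjusted p = 0.000134) and the aminopeptidase Lnpep (1.05, adjusted p = 3.35e-05). All 8 proteasome partners and PA28 genes were higher, the PA28 subunits Psme2 (1.10, adjusted p = 0.000632) and Psme1 (0.85, adjusted p = 0.0105) most, followed by the assembly factor Pomp (0.64, adjusted p = 0.00203). Of 6 cytosolic peptidases 5 were higher, among them Tpp2 (0.54, adjusted p = 0.00274), and of 16 regulators of class I genes 10 were higher and 4 lower, with Stat2 (2.52, adjusted p = 0.000121), Nfkb1 (2.46, adjusted p = 3.66e-07) and Irf1 (1.77, adjusted p = 0.000146) highest.

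Torin1 with LPS lowered 8 of the 10 loading and trimming genes in total mRNA and raised 0. Hspa5 (log2 −1.07, adjusted p = 0.00158), the lectin chaperone Calr (−0.57, adjusted p = 0.00416) and the oxidoreductase Pdia3 (−0.43, adjusted p = 0.0410) fell most. Calr and Pdia3 belong with tapasin to the loading complex. In polysome-associated mRNA 2 of these 10 were lower, Hspa5 and Calr, near the 18.2% of all genes. Of the 13 other heavy chains 5 were lower, H2-T22 (−0.78, adjusted p = 0.117) and H2-Q2 (−0.78, adjusted p = 0.0867) among them, and H2-M2 (1.57, adjusted p = 0.0403) was higher. Of the 8 proteasome partners 5 were lower and 1 higher, and of the 6 peptidases 4 were lower. Of the 16 regulators 5 were lower and 4 higher, near the shares of all genes in total mRNA (26.4% lower and 27.3% higher). Stat2 (−0.93, adjusted p = 0.0417), which carries signals from the type I interferon receptor, was lower in total mRNA, and the NF-kappaB subunit Relb (0.73, adjusted p = 0.00174) was higher. In polysome-associated mRNA Stat2 (−0.88, adjusted p = 0.105) was lower as well.

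Of 16 genes of class II presentation listed, 8 had a row, and with LPS 2 were higher and 3 lower in total mRNA, near the shares of all genes (32.2% higher and 34.3% lower). The protease Ctss (log2 0.55, adjusted p = 0.00904) and the invariant chain Cd74 (0.54, adjusted p = 0.00465) were higher. The thiol reductase Ifi30 (−0.48, adjusted p = 0.00552), the peptide exchange subunit H2-DMa (−0.33, adjusted p = 0.160) and the protease Lgmn (−0.22, adjusted p = 0.175) were lower. H2-Ab1 (0.58, adjusted p = 0.452), H2-DMb1 (−0.25, adjusted p = 0.784) and H2-DMb2 (−0.39, adjusted p = 0.459) did not pass. With torin1 and LPS, Ctss (0.58, adjusted p = 0.0123) and Lgmn (0.42, adjusted p = 0.0282) were higher than with LPS in total mRNA. H2-DMb2 (−1.14, adjusted p = 0.0907), H2-DMa (−0.37, adjusted p = 0.161) and Cd74 (−0.23, adjusted p = 0.182) were lower, while H2-Ab1 (0.86, adjusted p = 0.261), H2-DMb1 (−0.19, adjusted p = 0.872) and Ifi30 (−0.09, adjusted p = 0.593) did not pass. In polysome-associated mRNA the class II chain H2-Ab1 was higher with torin1 (2.24, SE 0.527, adjusted p = 0.0198), on 33, 19 and 41 counts against 5, 3 and 9 with LPS. The MHC class II protein of the study, measured in dendritic cells, went the other way, its rise with LPS being prevented by torin1. RNA and protein were not compared here. The difference between the class I and the class II genes was not tested.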

How the data were processed

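Treatment, RNA type and experiment of the 18 libraries were taken from the labels. Stranded libraries were made by the authors after depletion of ribosomal RNA, and their paired reads went through Hisat2 (GRCm38) and featureCounts. Protein-coding genes with a count in every library were kept by them. The deposited counts are raw and were not normalized. Versions of the aligner and the annotation are not given in the sources used here.

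Total and polysome-associated mRNA were each tested with edgeR 4.0.16 (R 4.3.3; quasi-likelihood, TMM, 9 libraries and 3 treatments in 1 model, Benjamini-Hochberg over all genes), and called at the study's FDR of 0.25. Translation efficiency was the interaction of RNA type and treatment over 18 libraries, and a call needed a fold of 1.2 or more. The study used anota2seq, which was not used here, and its analysis of partial variance was written with limma 3.58.1 as an alternative. DESeq2 1.42.0 was another. Log2 CPM had a pseudocount of 0.5. No filter on low counts was applied beyond that of the authors, so all 10 members were tested. The main edgeR p-values rest on the spread between the 3 libraries of a group, 1 from each experiment, and do not pair libraries by experiment. In the main test of translation efficiency the 2 libraries of a lysate were not paired either. P-values of the ratios come from permuting 3 libraries against 3.

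Same-numbered total mRNA libraries deviated from their group means together (mean r over genes 0.337, lowest 0.149), as did total and polysome-associated mRNA of 1 lysate (mean 0.480, lowest 0.391). Same-numbered polysome libraries did so less evenly (mean 0.290, lowest −0.092). The pairing comes from the labels and the methods, which describe independent experiments with matched RNA. Libraries of 1 group differed by more than sampling noise.

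Members and gene lists were chosen with earlier results of these data known. Named genes are all members, up to 3 genes with the largest called change from each other list, the constitutive subunits, the class II genes and the 5 genes most correlated with Nlrc5, and 1 gene that this rule names is not reported here. The ratio of Tap1 to Tap2 and the members singled out for translation efficiency were chosen after values were seen. The edgeR and DESeq2 tests and the analysis of partial variance were tested on simulated counts. The exact permutation tests of the ratios were not. Promoters are RefSeq windows on GRCm38.p6, and gene positions and overlaps come from the GENCODE annotation of GRCm38. Alternatives were the experiment or lysate as a block, other normalizations, a mean count of at least 50, other sets of libraries in the model, an FDR of 0.05 and leaving out each experiment.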

Additional observations from a re-analysis of the deposited data

How the results depend on the processing

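At an FDR of 0.05, torin1 with LPS against LPS kept 1 member and 3279 genes in total mRNA and 0 members and 1557 genes in polysome-associated mRNA, where LPS against control had 3654 genes and LPS with torin1 against control 3950. Leaving out 1 experiment in turn gave 1 to 6 members and 3959 to 5385 genes for torin1 with LPS against LPS in total mRNA, and 0 to 8 members and 1187 to 5182 genes in polysome-associated mRNA. It gave 3901 to 7251 genes for LPS against control and 4156 to 7627 for LPS with torin1 against control in polysome-associated mRNA, and 0 to 2 members and 0 to 430 genes for translation efficiency in the last comparison.

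Signs of small changes were not stable. The polysome-associated change of Tap2 with torin1 was −0.0145 with the experiment as a block, −0.0001 with DESeq2, −0.0004 with its size factors in edgeR and −0.0109 with 18 libraries in 1 model. That of Psmb8 for LPS with torin1 against control was −0.0094 with library totals. Without 1 experiment, torin1 with LPS against LPS ranged from −0.0776 to 0.2392 for Tap2, −0.2738 to 0.0128 for Tapbp and −1.0025 to 0.1866 for H2-DMb1 in total mRNA, and from −0.1599 to 0.1466 for Tap2 in polysome-associated mRNA. H2-DMb1 ranged from −0.7329 to 0.3342 for LPS against control in total mRNA. LPS with torin1 against control ranged from −0.1466 to 0.645 for Psmb9 and −0.0267 to 0.7928 for Psmb10 in polysome-associated mRNA. Translation efficiency ranged from −0.3222 to 0.0204 for Psmb9 with LPS against control, and with torin1 and LPS against LPS from −0.1671 to 0.0204 for B2m and −0.6327 to 0.115 for Psmb10. The polysome-associated ratio of Psmb10 to Psmb7 ranged from −0.077 to 0.358, −0.307 to 0.151 and −0.384 to 0.506 in the 3 comparisons, LPS against control first and LPS with torin1 against control last.

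For translation efficiency of all genes, in the same order of comparisons, DESeq2 called 1, 13 and 1 genes, the analysis of partial variance 9, 20 and 7, and the lysate as a block 0, 25 and 3. The experiment as a block gained the 4 member calls given above and changed no other call of a member; the paired test of the ratios cannot go below 0.25. The cause of these differences was not tested. What counting depth limits was not tested.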
